A study of Mus musculus with 20 samples.

Results

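The Dlx and Sp transcription factors of the subpallium were followed through the 6 RNA libraries of a study of mouse brain development. The members are Dlx1, Dlx2, Dlx5, Dlx6, Sp8, Sp9 and Six3, taken by symbol, and they make up 7 of the 34620 gene symbols counted. All 7 had counts in every library and passed the filter on low counts. The libraries are polyA RNA from microdissected tissue of C57BL/6 mice, labelled male and wild type, with no age given and no transgene or treatment in any of them. Precursors are represented by 1 hippocampal library (HP) and 1 striatal library (SP). Young neurons are represented by 1 library of CA pyramidal neurons of the hippocampus (yCA) and 1 of medium spiny neurons of the striatum (yMSN, "medial" in the labels). The remaining 2 libraries are dorsal medium spiny neurons (dMSN). The study also holds 14 bisulfite samples, some with a conditional loss of Dnmt3a, which were not analysed here.

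The subpallium is the ventral part of the embryonic forebrain, and its ganglionic eminences give rise to the projection neurons of the striatum and to most inhibitory interneurons of the cortex and hippocampus. Dlx genes encode homeodomain proteins and lie in the genome as neighbouring pairs, Dlx1 beside Dlx2 and Dlx5 beside Dlx6, that share enhancers. Dlx1 and Dlx2 act early in subpallial progenitors and promote GABAergic differentiation, and Dlx5 and Dlx6 act later in the same cells. Sp8 and Sp9 are zinc finger proteins of the ganglionic eminences that take part in making olfactory bulb interneurons and, with Six3, a homeodomain protein, striatal neurons of the indirect pathway.

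Counts assigned to genes ranged from 31282185 to 36969136 in the 4 unreplicated libraries and were 152347673 and 145713678 in dMSN 1 and dMSN 2. Levels are given as CPM, counts relative to the size of the library after scaling by the trimmed mean of M-values (TMM). Only dMSN has replicates, and the labels do not say whether its 2 libraries came from separate animals. In the dMSN comparisons, p-values thus measure a spread that may be technical. In the comparisons of young with precursor and of striatal with hippocampal tissue, they measure more than that spread. There they also take in how far the stage change differs between the lineages, which is not replicate spread. The labels were not borne out in every respect. Xist, a transcript of female cells, stood at 489 to 1088 CPM in HP, SP, yCA and yMSN, which are labelled male, and at or below 0.0333 CPM in dMSN. Ddx3y, Eif2s3y and Kdm5d, genes of the Y chromosome, together had 0 counts in SP and in yCA, 672 in HP, 2108 in yMSN, and 8258 and 9348 in dMSN 1 and dMSN 2. Sex content thus differed between the libraries compared, and its part in the results was not tested. In yCA and yMSN, the 17 striatal projection neuron genes summed to 1349 and 1178 CPM, and the 12 pallial and hippocampal genes to 1427 and 783 CPM. For dMSN 1 and dMSN 2 the striatal sums were 6408 and 6513 CPM, and the pallial and hippocampal sums 375 and 497 CPM. Transcripts of other tissues were also present. In yCA and yMSN the 8 skeletal muscle genes summed to 5621 and 2096 CPM, where the other libraries had 13.2 to 44.9 CPM. The 8 bone genes summed to 518 and 7221 CPM, of which Col1a1 alone gave 506 and 6725 CPM. Their medians were 1.52 CPM in yCA and 34.9 CPM in yMSN, so the bone list as a whole was high in yMSN only. The bone sum was 228 (HP) and 287 (SP) for precursors, and 40.5 and 44.5 for the dMSN pair. The 8 midbrain and hindbrain genes summed to 164 CPM in SP and 33.3 CPM in HP. Hypothalamus and pituitary genes, 8 in number, were highest in dMSN 1 and dMSN 2, at 101 and 39.5 CPM. Hcrt gave 66.7 and 20.9 CPM of those sums, and the other libraries had 5.57 to 33.5 CPM. Such material accompanies the comparisons of these libraries below, and its part in them was not tested.

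The DNA just before the start sites is shown because some of these genes rose together in the young libraries and others did not. Dlx1, Dlx2 and Sp9 rose, Sp8 and Six3 did not pass the test, and Dlx6os1 is a noncoding RNA gene in the Dlx5 and Dlx6 cluster that rose with them. The sequences are the 250 bases upstream of a RefSeq start site in GRCm38.p6, a build other than those the submitters name. Windows were found for 5 of the 7 members, and none was found for Dlx5 and Dlx6. The windows lie at chr2:71529195-71529444 on the + strand for Dlx1, chr2:71546755-71547004 on the - strand for Dlx2, chr2:73271676-73271925 on the + strand for Sp9, chr12:118846983-118847232 on the + strand for Sp8, chr17:85620584-85620833 on the + strand for Six3 and chr6:6869534-6869783 on the - strand for Dlx6os1. Capitals mark 3 motifs searched on both strands: TAATTA, a core that homeodomain proteins such as Dlx bind, GGGCGG or its reverse CCGCCC, the GC box of Sp proteins, and CCAAT or its reverse ATTGG.
Dlx1: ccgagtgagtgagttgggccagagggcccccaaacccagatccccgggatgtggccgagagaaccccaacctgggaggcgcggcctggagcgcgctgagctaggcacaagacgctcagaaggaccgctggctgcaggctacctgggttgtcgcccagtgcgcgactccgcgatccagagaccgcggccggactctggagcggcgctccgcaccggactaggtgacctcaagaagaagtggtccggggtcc
Dlx2: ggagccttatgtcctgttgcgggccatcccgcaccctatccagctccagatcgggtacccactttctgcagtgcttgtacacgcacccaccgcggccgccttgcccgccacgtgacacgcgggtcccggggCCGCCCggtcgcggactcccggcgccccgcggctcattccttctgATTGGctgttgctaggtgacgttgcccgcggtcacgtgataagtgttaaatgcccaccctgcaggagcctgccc
Sp9: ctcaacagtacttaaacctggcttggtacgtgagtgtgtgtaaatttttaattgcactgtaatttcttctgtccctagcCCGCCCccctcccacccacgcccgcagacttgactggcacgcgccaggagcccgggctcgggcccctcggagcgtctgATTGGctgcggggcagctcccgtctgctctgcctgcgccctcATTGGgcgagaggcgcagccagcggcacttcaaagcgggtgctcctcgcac
Sp8: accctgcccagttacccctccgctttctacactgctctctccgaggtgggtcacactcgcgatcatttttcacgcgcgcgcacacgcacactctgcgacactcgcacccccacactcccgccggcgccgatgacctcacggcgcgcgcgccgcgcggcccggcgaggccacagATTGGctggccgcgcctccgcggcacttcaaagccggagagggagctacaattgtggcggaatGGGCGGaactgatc
Six3: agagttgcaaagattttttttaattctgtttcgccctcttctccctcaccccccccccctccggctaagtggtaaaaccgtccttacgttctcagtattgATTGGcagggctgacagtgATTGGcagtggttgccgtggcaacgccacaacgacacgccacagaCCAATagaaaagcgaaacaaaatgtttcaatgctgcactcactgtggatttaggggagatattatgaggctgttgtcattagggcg
Dlx6os1: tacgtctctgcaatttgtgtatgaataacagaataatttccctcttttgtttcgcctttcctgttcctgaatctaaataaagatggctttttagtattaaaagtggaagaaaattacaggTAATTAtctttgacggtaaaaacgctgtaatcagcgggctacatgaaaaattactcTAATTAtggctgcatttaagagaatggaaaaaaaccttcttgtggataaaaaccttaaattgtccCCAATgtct
The Dlx1 window held 0 matches of the 3 motifs. The Dlx2 window held 1 GC box and 1 CCAAT match, the Sp9 window 1 and 2, and the Sp8 window 1 and 1, while the Six3 window held 3 CCAAT matches and 0 GC boxes. TAATTA was found 2 times in this window of Dlx6os1 and 0 times in the windows of Dlx1, Dlx2, Sp9, Six3 and this window of Sp8. Another of the 3 Sp8 windows, at chr12:118847309-118847558, held TAATTA 1 time, with 0 GC boxes and 0 CCAAT matches. The remaining Sp8 window, at chr12:118846079-118846328, held 0 GC boxes and 1 CCAAT match. Dlx6os1 has another window, not printed, at chr6:6861684-6861933 on the - strand, which held TAATTA 1 time. The printed windows of Sp8 and Dlx6os1 were thus those with the most matches. Over all 32851 windows of this length, 4.84% held TAATTA, 32.7% a GC box and 33.8% CCAAT. The windows of Dlx1, Dlx2 and Sp9 held 22, 24 and 18 CpG dinucleotides, that of Sp8 held 32, and that of Six3 held 10, against a median of 6 over all windows. The other windows of Sp8 held 1 and 6, the printed window of Dlx6os1 held 5 and its other window held 3. A match describes the letters and is not a measured binding site.

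The members followed several courses across the libraries. Dlx1 stood in precursors at 35.3 CPM (HP) and 28.5 CPM (SP), in young tissue at 206 CPM (yCA) and 179 CPM (yMSN), and in dMSN 1 and dMSN 2 at 42.7 and 43.8 CPM. It was highest in both young libraries, with the hippocampal library above the striatal one, and the precursor and dMSN libraries lay far below. Dlx2 stood in precursors at 28.6 CPM (HP) and 16.8 CPM (SP), in young tissue at 67.1 CPM (yCA) and 63.6 CPM (yMSN), and in dMSN 1 and dMSN 2 at 17.6 and 17.1 CPM. Its order was similar, except that HP lay above dMSN. For Dlx2 with TMM scaling, yCA and yMSN did not differ beyond counting error, nor did dMSN 2 and SP.

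Dlx5 was highest in yMSN and Dlx6 in dMSN, which has no hippocampal counterpart among the RNA libraries. Dlx5 stood in precursors at 9.10 CPM (HP) and 4.43 CPM (SP), in young tissue at 26.9 CPM (yCA) and 38.7 CPM (yMSN), and in dMSN 1 and dMSN 2 at 25.1 and 25.8 CPM. It was highest in yMSN, and yCA, dMSN 2 and dMSN 1, in that order, did not differ from their neighbours beyond counting error. Dlx6 stood in precursors at 4.94 CPM (HP) and 2.79 CPM (SP), in young tissue at 16.9 CPM (yCA) and 29.1 CPM (yMSN), and in dMSN 1 and dMSN 2 at 80.9 and 62.2 CPM. Both dMSN libraries were above all the others, and Dlx6 was the member whose dMSN libraries lay farthest apart in CPM (71.6 ± 13.2, SD, n = 2). SP was the lowest library for Dlx1, Dlx5 and Dlx6.

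Sp8 and Sp9 parted in dMSN. Sp8 stood in precursors at 32.5 CPM (HP) and 29.98 CPM (SP), in young tissue at 20.6 CPM (yCA) and 42.4 CPM (yMSN), and in dMSN 1 and dMSN 2 at 5.09 and 4.08 CPM. Precursor and young libraries overlapped, and both dMSN libraries were below all of them. Sp9 stood in precursors at 3.88 CPM (HP) and 9.82 CPM (SP), in young tissue at 38.6 CPM (yCA) and 26.3 CPM (yMSN), and in dMSN 1 and dMSN 2 at 35.1 and 32.5 CPM. Its precursor libraries were below all the others, and the dMSN libraries lay between the young ones.

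Six3 was low throughout. It stood in precursors at 1.92 CPM (HP) and 1.13 CPM (SP), in young tissue at 1.62 CPM (yCA) and 1.50 CPM (yMSN), and in dMSN 1 and dMSN 2 at 0.258 and 0.319 CPM, from 31 to 67 counts per library. HP, yCA, yMSN and SP, in that order, did not differ from their neighbours beyond counting error, and both dMSN libraries were below them. A further count row named Six3os1.1, chosen after its values were seen, carries the name of the divergent noncoding RNA beside Six3. It held more reads than Six3, with 26.9 CPM (HP) and 13.2 CPM (SP) in precursors, 7.40 CPM (yCA) and 13.3 CPM (yMSN) in young tissue, and 5.95 and 3.25 CPM in dMSN 1 and dMSN 2. No strand setting is stated, so reads of Six3 and of overlapping transcripts cannot be told apart, and the low Six3 counts carry that limit.

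**Figure D1:**
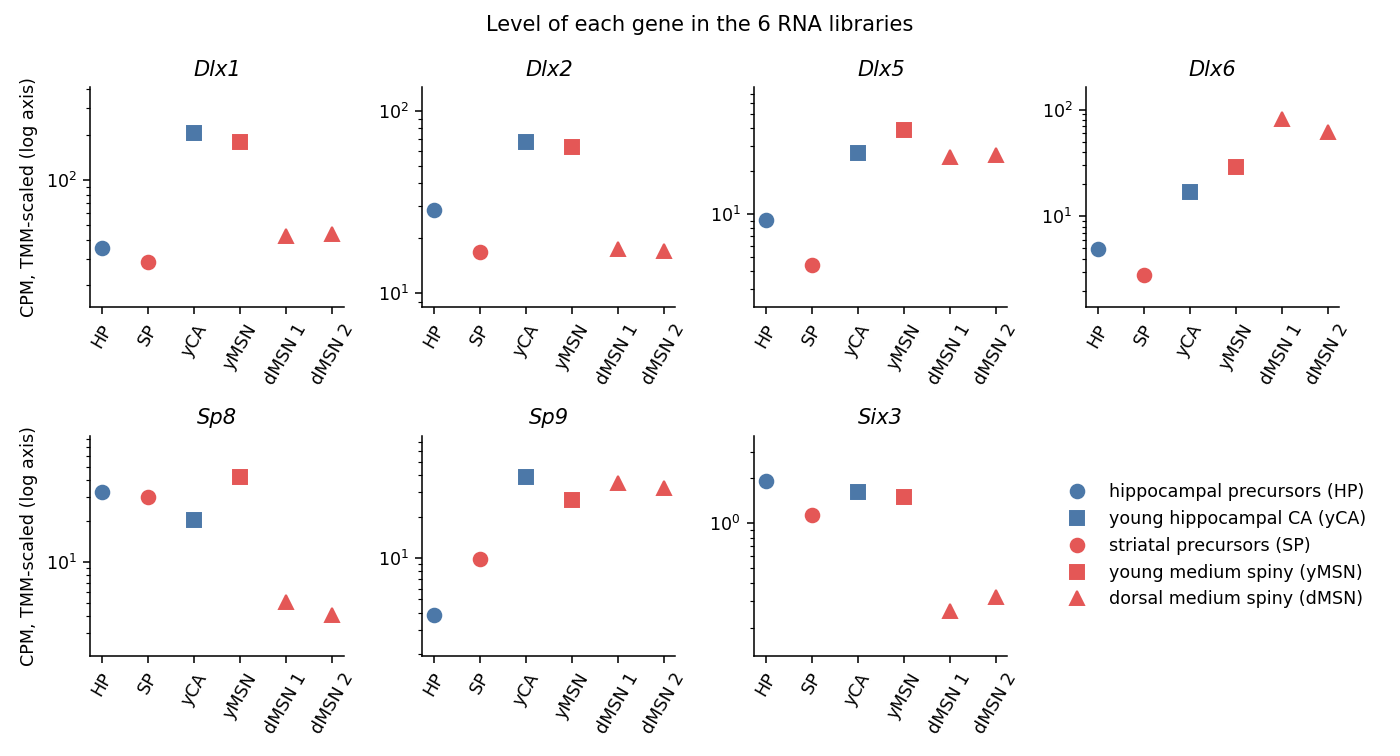
TMM-scaled CPM (log axis) of each member in the 6 libraries, 1 point per library, blue for hippocampal and red for striatal tissue, with circles for precursors, squares for young tissue and triangles for dMSN. Dlx1 and Dlx2 peak in the 2 young libraries, Dlx6 rises to 80.9 and 62.2 CPM in dMSN, Sp8 drops to 5.09 and 4.08 CPM there, and Six3 stays at or below 1.92 CPM.

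The comparison of young with precursor tissue asked which members differ between the stages on average over both lineages. It does not test either lineage alone. Opposite changes in the lineages offset each other in it, as the Sp8 ratios below do. Of the 7 members, 5 rose and 0 fell, namely Dlx1, Dlx2, Dlx5, Dlx6 and Sp9. Of all 19192 genes tested, 21.7% rose and 13.7% fell, and the median log2 change was 2.34 over the members and 0.10 over all genes. On the log2 scale Dlx1 rose by 2.60 (SE 0.145, adjusted p = 0.0012), and its level was 5.82-fold higher in yCA than in HP and 6.28-fold higher in yMSN than in SP. Dlx2, its neighbour, rose by 1.58 (SE 0.218, adjusted p = 0.00611). Dlx6 rose by 2.57 (SE 0.427, adjusted p = 0.00993) and Dlx5 by 2.34 (SE 0.407, adjusted p = 0.0113). For this pair the ratio of yMSN to SP was larger than that of yCA to HP, 8.69-fold against 2.95-fold for Dlx5 and 10.3-fold against 3.40-fold for Dlx6, a difference with 1 library each that has no test.

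Sp9 rose by 2.35 (SE 0.478, adjusted p = 0.0175), and its larger ratio was in the hippocampal lineage, 9.89-fold in yCA over HP against 2.67-fold in yMSN over SP. Sp9 was the only one of the 5 to lose its call when a library was left out, with adjusted p = 0.0587 without dMSN 1 and 0.057 without dMSN 2, in a range of 8.62e-07 to 0.0587 over its alternatives. Sp8 did not pass (log2 change -0.08, SE 0.325, adjusted p = 0.873), and its yCA level was 0.633-fold that of HP while its yMSN level was 1.41-fold that of SP. Six3 did not pass either (log2 change 0.07, SE 0.389, adjusted p = 0.904). The sign of both values changed with the setting: Sp8 was at 0.49 without HP and 0.39 without yCA, and Six3 at -0.057 with relative log expression (RLE) scaling. The test came from edgeR's quasi-likelihood fit with lineage and stage as terms. In bulk tissue, fewer cells of a type and less RNA per cell cannot be told apart. In these libraries, all 8 muscle and all 8 stratified epithelium genes also rose.

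**Figure D2:**
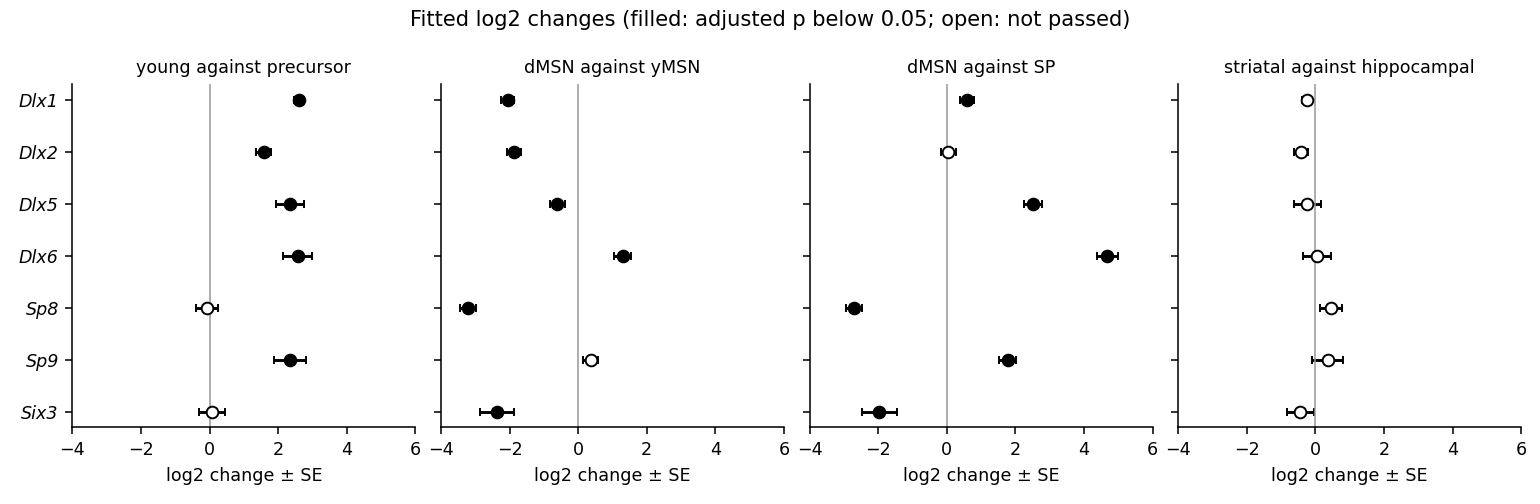
Fitted log2 change (dot) with its SE (bar) for each member in the 4 tested comparisons, filled where the adjusted p was below 0.05. In young against precursor 5 members are filled and to the right of 0, and in striatal against hippocampal 0 are filled.

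The regional comparison asked whether striatal and hippocampal tissue differ in these genes on average over precursors and young tissue. It does not test either stage alone. Opposite differences at the stages offset each other in it, as the single-pair ratios of Dlx5, Dlx6 and Sp9 below do. No member was called: 0 of 7 passed in the fit over both stages, where 0% of all 19192 genes passed in either direction and each member had adjusted p = 1. The count of 0 over all genes stood beside 826 genes at an unadjusted p below 0.05 in edgeR, 0 genes by limma voom and 60 by DESeq2. It also depended on the model and the libraries: 356 genes were called with 1 mean per cell group, 1495 and 1515 when HP or SP was left out, and 116 and 130 when yCA or yMSN was. The fitted log2 differences, striatal minus hippocampal, were -0.25 for Dlx1 (SE 0.138), -0.42 for Dlx2 (SE 0.213), -0.23 for Dlx5 (SE 0.392) and 0.04 for Dlx6 (SE 0.413). They were 0.46 for Sp8 (SE 0.326), 0.36 for Sp9 (SE 0.463) and -0.44 for Six3 (SE 0.389). The SE for Dlx1 is the smallest of these, and those for Dlx5, Dlx6 and Sp9 exceed their differences. The sign of the Dlx6 value changed under 8 of its 14 alternatives, RLE scaling among them. Without HP, or without SP, Sp8 passed at a log2 difference of 1.04 (adjusted p = 0.0448 and 0.0418, in a range of 0.0418 to 1 over its alternatives), a fit in which only the young pair compares the lineages. In those fits 7.81% and 7.92% of all genes were called, so that the call is not particular to Sp8.

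Between the precursor libraries, 6 of 7 members had the lower value in the striatal library, where 49.8% of 14093 genes had the higher value. The log2 ratio of SP to HP was -1.03 for Dlx5 (95% interval -1.31 to -0.77, exact, counting error only), -0.81 for Dlx6 (-1.18 to -0.47) and -0.77 for Dlx2 (-0.91 to -0.63). It was -0.75 for Six3 (-1.34 to -0.20), -0.31 for Dlx1 (-0.43 to -0.19) and -0.12 for Sp8 (-0.24 to 0.00). Sp9 alone was higher in SP, with a log2 ratio of 1.33 (1.05 to 1.63). At 2-fold or more, 1 member was higher (Sp9) and 1 lower (Dlx5), where 3.14% of 14093 genes at 1 CPM or more were higher and 1.38% lower. Dlx genes are also active outside the subpallium, in facial skeleton, ear and olfactory placode. The bone genes summed to 228 CPM (HP) and 287 CPM (SP), and the olfactory epithelium genes to 12.3 and 10.6 CPM. The part of such tissue in the ratios of SP to HP was not tested. With 1 library of each kind, the pair has no replicate check.

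Between the young libraries the Dlx pairs parted. The log2 ratio of yMSN to yCA was -0.20 for Dlx1 (-0.24 to -0.15) and -0.08 for Dlx2 (-0.16 to 0.00), but 0.52 for Dlx5 (0.41 to 0.64) and 0.78 for Dlx6 (0.65 to 0.92). Sp8 had the highest ratio of the 7, 1.04 (0.92 to 1.16), Sp9 stood at -0.56 (-0.67 to -0.44) and Six3 at -0.11 (-0.64 to 0.41). At 2-fold or more, 1 member was higher (Sp8) and 0 lower, where 11.8% of 15426 genes were higher and 2.59% lower. With RLE scaling the Sp8 ratio was 0.95 and the count of higher members was 0. Dlx1 was then at -0.29 and Dlx2 at -0.17, each outside its interval above, while the other members stayed inside theirs. The intervals do not cover the choice of scaling. Beside these values, olfactory epithelium genes summed to 158 CPM in yMSN against 23.2 CPM in yCA, and bone genes were higher in yMSN as given above. The other family members known from skeleton showed the same side: Dlx3, of teeth and bone, stood at 13.2 CPM (yMSN) and 1.21 CPM (yCA), and Sp7, of osteoblasts, at 38.3 and 0.591 CPM. Dlx5 and Dlx6 are known in osteoblasts and olfactory placode too, and the part of such tissue in their ratios was not tested.

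**Figure D3:**
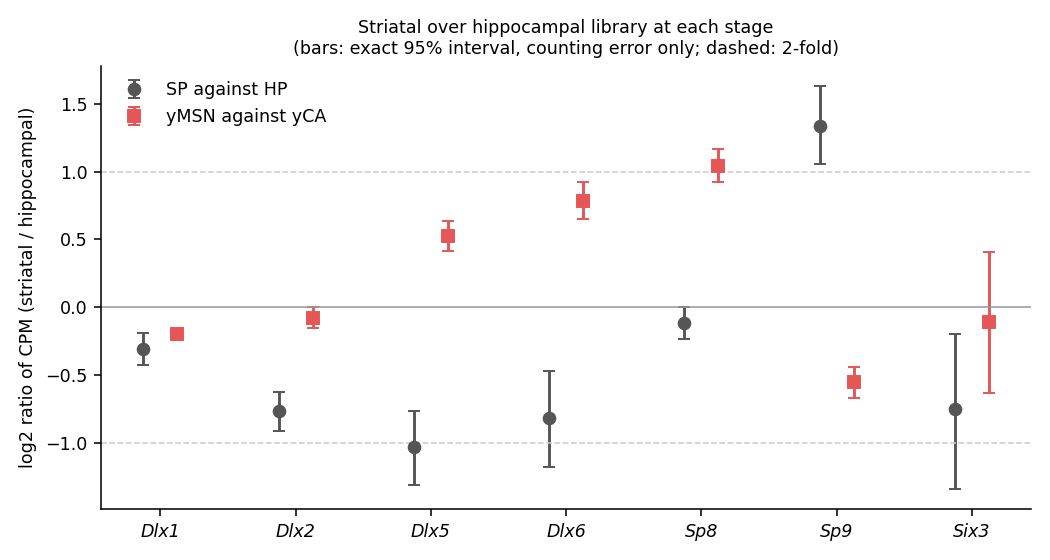
Log2 ratio of the striatal to the hippocampal library for each member, in precursors (grey circles) and in young tissue (red squares), with exact 95% intervals for counting error and dashed lines at 2-fold. Dlx5 and Dlx6 lie below 0 in precursors and above 0 in young tissue, Sp9 does the reverse, and Dlx1 is below 0 at both stages.

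The level kept in dMSN was compared with yMSN and with SP. Of the 7 members, 1 was higher and 5 were lower in dMSN than in yMSN, where 32.1% of all genes were higher and 35.4% lower, with a median log2 change of -1.88 over the members and -0.11 over all genes. Dlx6 was the member that rose, with a log2 change of 1.30 (SE 0.245, adjusted p = 0.000504), to 246% of its yMSN level. Sp8 fell the most, by 3.21 (SE 0.232, adjusted p = 1.62e-07), to 10.8% of its yMSN level. Six3 fell by 2.37 (SE 0.487, adjusted p = 0.000946), and it did not pass in DESeq2 (adjusted p = 0.0975, in a range of 9.72e-05 to 0.0975 over its alternatives).

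Dlx1 fell by 2.05 from yMSN to dMSN (SE 0.186, adjusted p = 1.13e-06) and Dlx2 by 1.88 (SE 0.201, adjusted p = 4.65e-06), leaving 24.1% and 27.2% of their yMSN levels. Their dMSN levels were 43.2 ± 0.745 and 17.3 ± 0.349 CPM (SD, n = 2). The step down was much smaller for Dlx5, which fell by 0.60 (SE 0.220, adjusted p = 0.0279), to 65.8%. Its call did not hold with no filter on low counts, in DESeq2 or in the additive model (adjusted p = 0.0665, 0.164 and 0.574, in a range of 0.00892 to 0.574 over its alternatives). Sp9 did not pass (log2 change 0.36, SE 0.226, adjusted p = 0.171), and its value was -0.16 in the additive model. The lone yMSN library is assumed to vary like the dMSN pair. All 8 bone, 8 cartilage, 8 muscle and 8 stratified epithelium genes were also lower in dMSN than in yMSN. Of 6 hypothalamus and pituitary genes tested, 4 were higher and 1 was lower in dMSN.

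Against SP, which shares the dMSN libraries with the comparison above, 4 members were higher and 2 lower in dMSN, where 39.1% of all genes were higher and 33.1% lower. On the log2 scale Dlx6 was higher by 4.68 (SE 0.309, adjusted p = 4.34e-08), Dlx5 by 2.52 (SE 0.265, adjusted p = 2.63e-06) and Sp9 by 1.78 (SE 0.246, adjusted p = 3.07e-05). Dlx6, at 25.6-fold the SP level, was the member farthest above its precursor level. Dlx1 was higher by 0.60 (SE 0.202, adjusted p = 0.0179), a call that was lost with upper quartile scaling and in DESeq2 (adjusted p = 0.0509 and 0.0771, in a range of 0.0171 to 0.0771 over its alternatives). Dlx2 did not pass (log2 change 0.05, SE 0.213, adjusted p = 0.855), and its sign changed under 6 of its 12 alternatives, RLE and upper quartile scaling among them. Sp8 was lower in dMSN than in SP, with a log2 change of -2.71 (SE 0.231, adjusted p = 4.18e-07), as was Six3, with -1.97 (SE 0.502, adjusted p = 0.00364). For Six3 this call did not hold in DESeq2 (adjusted p = 0.131, in a range of 0.000719 to 0.131 over its alternatives).

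Within each gene pair the balance of reads shifted, which can be read across libraries without gene lengths. Dlx6 made up 35.2% of the Dlx5 and Dlx6 reads in HP (exact 95% interval 30.9 to 39.6), 38.7% in SP, 38.5% in yCA and 42.9% in yMSN (41.1 to 44.7). In dMSN 1 and dMSN 2 its share was 76.3% and 70.7%, above all the other libraries. Of the Dlx1 and Dlx2 reads, Dlx2 made up 44.7% (HP) and 37.0% (SP) in precursors, 24.6% (yCA) and 26.2% (yMSN) in young tissue, and 29.1% and 28.1% in dMSN. The share was thus highest in precursors and lower in both later stages. Of the Sp8 and Sp9 reads, Sp9 made up 10.7% (HP) and 24.7% (SP) in precursors, 65.2% (yCA) and 38.3% (yMSN) in young tissue, and 87.3% and 88.8% in dMSN. Both dMSN libraries were the highest for Sp9.

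**Figure D4:**
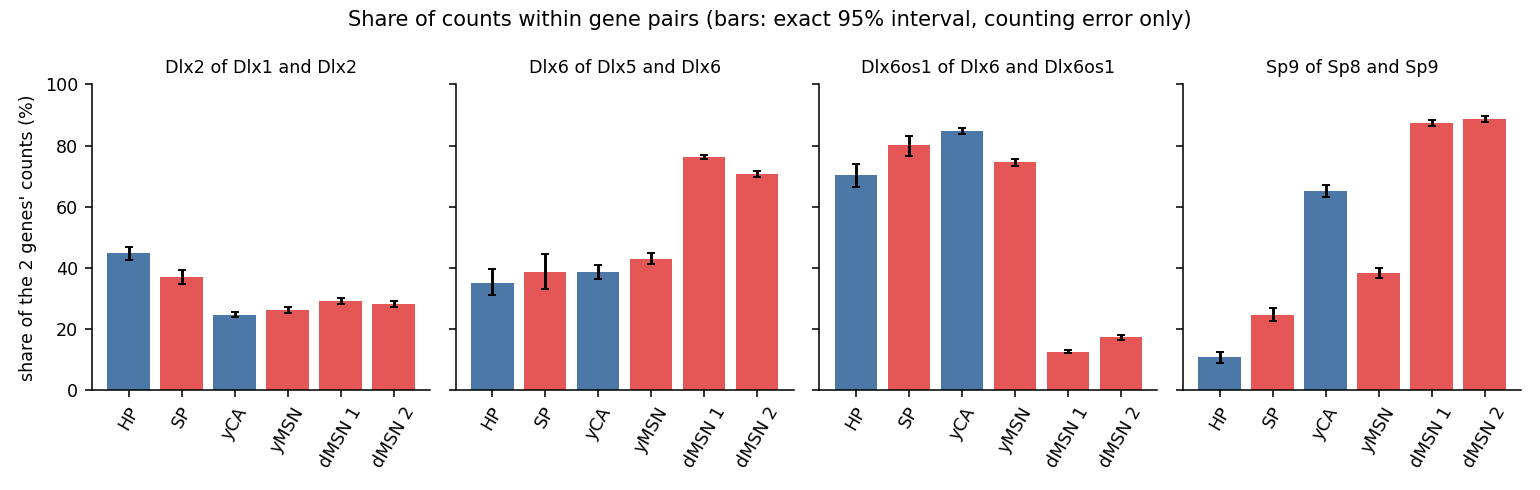
Share of reads within 4 gene pairs in each library (bars from 0, blue hippocampal, red striatal), with exact 95% intervals for counting error. The share of Dlx6 rises to 76.3% and 70.7% in dMSN while the share of Dlx6os1 beside it drops to 12.6% and 17.3%.

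Noncoding genes lie within both Dlx clusters. Dlx6os1, also called Evf2, is transcribed against Dlx6 and is known to regulate the cluster. It stood in precursors at 11.7 CPM (HP) and 11.2 CPM (SP), in young tissue at 94.5 CPM (yCA) and 85.2 CPM (yMSN), and in dMSN 1 and dMSN 2 at 11.7 and 13.0 CPM. Like Dlx1, it was high in the young libraries alone. It rose by 2.97 from precursor to young tissue (SE 0.166, adjusted p = 0.0012) and fell by 2.79 from yMSN to dMSN (SE 0.203, adjusted p = 1.73e-07), opposite to Dlx6 in that comparison. Of the Dlx6 and Dlx6os1 reads, Dlx6os1 held 70.4% to 84.8% in the 4 precursor and young libraries. It held 12.6% in dMSN 1 and 17.3% in dMSN 2. Dlx1as, antisense to Dlx1, stood in precursors at 1.58 CPM (HP) and 2.29 CPM (SP), in young tissue at 16.9 CPM (yCA) and 9.12 CPM (yMSN), and in dMSN 1 and dMSN 2 at 0.989 and 1.18 CPM. It rose by 2.70 in young tissue (SE 0.453, adjusted p = 0.0102) and fell by 3.07 from yMSN to dMSN (SE 0.308, adjusted p = 2.7e-06). Without a stated strand setting, reads from a gene and its antisense partner cannot be told apart where they overlap.

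Of 7 regulators that act beside or before Dlx in subpallial progenitors, 1 rose and 2 fell in young tissue, where 21.7% and 13.7% of all genes did. With so few genes these counts are not a result about the list. On the log2 scale Gsx1, a homeodomain factor of the ganglionic eminences, fell by 1.93 (SE 0.484, adjusted p = 0.0322). Olig1, known also from oligodendrocytes, rose by 2.79 (SE 0.216, adjusted p = 0.00196). Gsx2, which acts upstream of Dlx genes, had a log2 change of 0.0028 (SE 0.384, adjusted p = 1) and was chosen after its values were seen. From yMSN to dMSN, 4 of the 7 fell and 2 rose, where 35.4% and 32.1% of all genes did.

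Of 13 genes of GABAergic differentiation known downstream of Dlx, 10 rose and 0 fell from precursor to young tissue (76.9% and 0%, against 21.7% and 13.7% of all genes), with a median log2 change of 1.65 beside 0.10 over all genes. Gad1, which makes GABA, rose by 4.03 (SE 0.321, adjusted p = 0.00202), from 4.85 CPM in HP and 8.48 in SP to 117 in yCA and 95.8 in yMSN. Slc32a1, the vesicular GABA transporter, rose by 3.06, and Lhx6, a factor of medial eminence interneurons, by 2.65. From yMSN to dMSN the list divided, with 5 genes higher and 7 lower (38.5% and 53.8%, against 32.1% and 35.4% of all genes). Slc32a1 rose by 3.57, Npas1, a factor of GABAergic neurons, by 2.51 and Gad1 by 2.49, whereas Cxcr4, a receptor of migrating interneurons, fell by 4.04. Gad1 and Gad2, which make GABA, and Slc32a1 were higher in dMSN than in yMSN, where Dlx1 and Dlx2 were lower.

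Interneurons and striatal projection neurons are cells that carry Dlx. The 9 interneuron markers summed to 73.7 CPM (HP) and 51.8 CPM (SP) in precursors, 178 CPM (yCA) and 185 CPM (yMSN) in young tissue, and 1654 and 1393 CPM in dMSN 1 and dMSN 2. In precursors most of the sum was Sox6, at 53.8 CPM (HP) and 41.4 CPM (SP), and the medians of the list were 0.115 and 0.403 CPM. Of the 8 that were tested, 5 rose in young tissue (21.7% of all genes), and 7 rose and 1 fell from yMSN to dMSN (32.1% and 35.4% of all genes). Pvalb, of fast-spiking interneurons, stood at 244 and 163 CPM in dMSN and at or below 0.463 CPM in the other libraries. Of 17 striatal projection neuron genes, 10 rose in young tissue, and 9 rose and 6 fell from yMSN to dMSN, against those same shares of all genes. Among them, Ppp1r1b, which encodes DARPP-32, rose by 7.05 in that step, and Penk, which encodes enkephalin, by 5.50. In SP over HP, 6 of the 14 striatal projection neuron genes at 1 CPM or more had the higher value in SP. In yMSN over yCA, 6 of 17 had the higher value in yMSN. Of the pallial and hippocampal genes at that level, 3 of 10 had the higher value in SP and 1 of 12 in yMSN. Of all genes at that level, 49.8% were higher in SP than in HP and 49.5% in yMSN than in yCA. The part of interneuron and projection neuron content in the levels of the members was not tested.

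**Figure D5:**
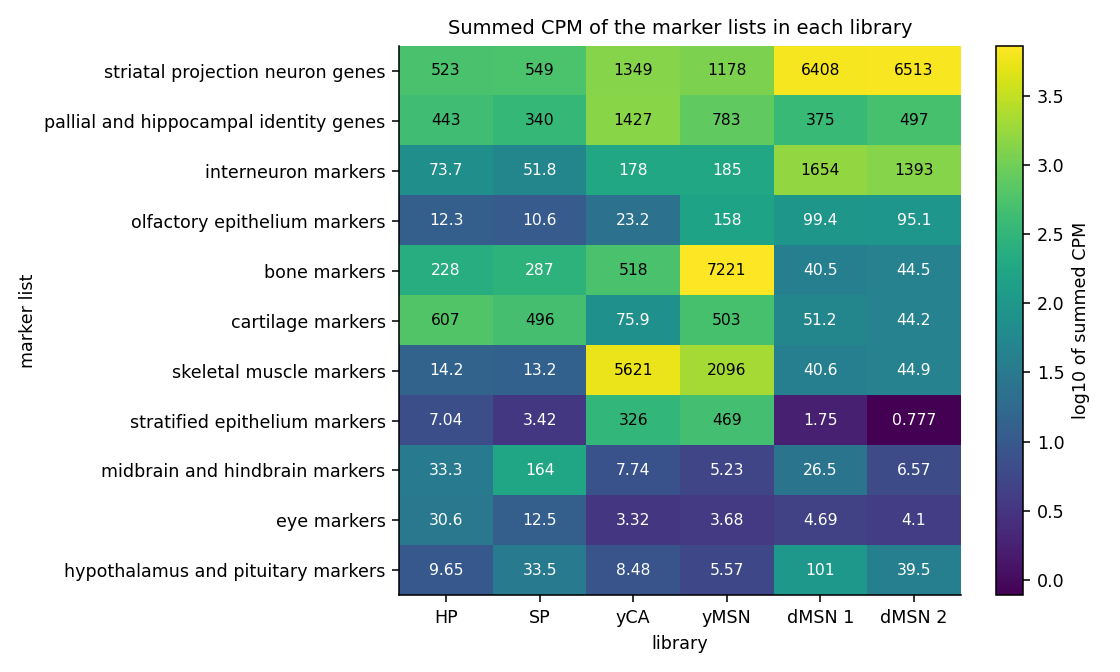
Summed CPM of 11 marker lists in the 6 libraries (number in each cell, colour on a log10 scale). Interneuron markers reach 1654 and 1393 CPM in dMSN, muscle genes 5621 CPM in yCA and bone genes 7221 CPM in yMSN.

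Of 13 other genes of these families that were tested, 1 rose and 3 fell in young tissue (21.7% and 13.7% of all genes), with a median log2 change of -0.79. Sp5, a Wnt target, fell by 2.15 (SE 0.425, adjusted p = 0.0162), and Dlx4 rose by 2.86 (SE 0.789, adjusted p = 0.0417) at 2.03 CPM or less in every library. From yMSN to dMSN, 10 fell and 0 rose (35.4% and 32.1% of all genes). Dlx3 fell by 6.27, Six2, a factor of kidney progenitors, by 5.70 and Sp7 by 3.67. In yMSN over yCA, 7 of the 13 were at least 2-fold higher, as were 11.8% of all genes at 1 CPM or more, beside the bone genes given above, of which Sp7 is itself 1.

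Among the members themselves, Dlx1 and Dlx2 had the most similar profiles over the 6 libraries, with a root mean square (RMS) difference of 0.45 between centred log2(CPM + 1) profiles, and Dlx6 and Sp8 the least similar, at 2.67. The likeness is a description over 6 libraries that share the young and dMSN peaks. Among 13510 other genes, the nearest to Dlx1 were Adamtsl3 (RMS difference 0.104), Sspn, Fgf7 and Sdpr, and the nearest to Dlx2 were Vgll2 (0.180), Pcdhb21, Rbms3 and Dio3. Barx2 (0.203), Rftn1, Slc14a2 and Ltbp3 were nearest to Dlx5, and Prelp (0.205), Pde4a, Cgref1 and Chi3l1 to Dlx6. For the Sp genes, Itpr3 (0.0778), Tie1, Tgfbi and Cgnl1 were nearest to Sp8, and Oprl1 (0.121), Fgf11, Stmn2 and Accn2 to Sp9. Six3 was nearest to Tbc1d13 (0.117), Hbp1, H3f3b and Lhx2.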

How the data were processed

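RNA from 6 libraries of microdissected mouse brain was analysed as the deposited raw counts of reads per gene symbol, which the authors made with HTSeq per the file contents and the submitters' processing notes. Those notes also name TopHat2 2.0.2, TopHat, Bowtie 1.0.0, edgeR, Bismark and methylKit and the builds mm9 and NCBIM37, without roles. The strand setting is not given in the sources used here. Reads in no gene made up 5.34% to 9.81% of a library, and those aligned to several places 17.3% to 27.3%, and both were left out.

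Counts were scaled by TMM and filtered by filterByExpr to 19192 genes in edgeR 4.0.16 (limma 3.58.1, R 4.3.3). Each gene was tested by the quasi-likelihood method, and p-values were adjusted over all genes by Benjamini and Hochberg, with 0.05 as the threshold. Young against precursor and striatal against hippocampal came from a model of lineage and stage with 2 residual degrees of freedom. Of these, 1 came from the dMSN pair and 1 from the stage change differing between the lineages. For the dMSN comparisons each cell group had its own mean, which leaves 1 residual degree of freedom. The SE is the log2 change divided by the square root of F. Single pairs have no test. For them the log2 ratio was formed after adding a prior count of 2, its exact 95% interval covers counting error only, and a call means 2-fold among genes with 1 CPM or more in the higher library.

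The members and the 15 other lists were chosen with earlier results of these data known. All members were named, with up to 4 genes per list and comparison by size of change, any gene of the other tissue lists, and the 4 nearest profiles per member among genes with a mean of 1 CPM. Predicted and clone-named genes were left out of the profiles. Gsx2, and Gad2 in dMSN, are outside that rule and were chosen after their values were seen. Some genes eligible under it are not reported here. Dlx6os1 is listed in the counts under its older symbol. The alternatives were RLE and upper quartile scaling, no filter, 1 CPM in 2 libraries, DESeq2 1.42.0, limma voom, the other model, a prior count of 0.5, a 3-fold limit and each library left out. The steps were tested on simulated data.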

Additional observations from a re-analysis of the deposited data

Results flagged for a closer look

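The striatal to hippocampal ratio went opposite ways in precursors and in young tissue for Dlx5, Dlx6 and Sp9. For Dlx5 the log2 ratio was -1.03 in SP over HP and 0.52 in yMSN over yCA. For Dlx6 it was -0.81 and 0.78. For Sp9 it was 1.33 and -0.56. Sp8 went opposite ways between the lineages, with a log2 ratio of -0.66 in yCA over HP and 0.50 in yMSN over SP. Each ratio rests on 1 library against 1, the exact counting intervals of all 8 ratios leave out 0, and the differences between the ratios were not tested.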

How the results depend on the processing

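No paired analysis was possible because the groups share only replicate number 1, which is a bare label. The number of members called was 6 in dMSN against yMSN, where 32.1% of all genes were higher and 35.4% lower. The number was 6 in dMSN against SP as well, where 39.1% of all genes were higher and 33.1% lower. In young against precursor 5 were called, where 21.7% of all genes rose and 13.7% fell. In striatal against hippocampal 0 were called, where 0% of all genes passed. For the dMSN comparisons, only libraries outside the contrast could be left out with a test. The count then stayed at 6, which is no check on those calls. Leaving out single libraries gave 4 to 5 members in young against precursor and 0 to 1 in striatal against hippocampal. The 1 was Sp8, called without HP or without SP, where 7.81% and 7.92% of all genes were called against 0% with all libraries. In dMSN against yMSN the count was 4 in DESeq2 and 5 with no filter and in the additive model. In those 3 settings 51.5%, 49.6% and 59.9% of all genes were called. In dMSN against SP the count was 4 in DESeq2 and 5 with upper quartile scaling, where 57.9% and 72.1% of all genes were called. At 3-fold, 0 members were called in SP against HP and 0 in yMSN against yCA, and 0 with RLE scaling in yMSN against yCA. Signs changed mainly where the value was near 0 and not called. In dMSN against yMSN, Sp9 was at -0.16 in the additive model. In dMSN against SP, Dlx2 was at -0.076 with RLE scaling and DESeq2, -0.082 with upper quartile scaling, -0.052 with 1 CPM in 2 libraries, -0.14 in the additive model and -0.040 to 0.067 with single libraries left out. In striatal against hippocampal, Dlx6 was at -0.018 with RLE scaling and with group means, -0.020 with no filter, -0.0036 with 1 CPM in 2 libraries, -0.043 in DESeq2 and -0.049 without both dMSN libraries. With limma voom there, Dlx5 was at 0.11 and Sp9 at -0.051. With single libraries left out, the ranges there were -1.04 to 0.52 for Dlx5 and -0.82 to 0.78 for Dlx6. They were -0.12 to 1.04 for Sp8 and -0.56 to 1.34 for Sp9. Without HP or SP only the young pair compares the lineages, and without yCA or yMSN only the precursor pair. The ends of these ranges thus restate the single-pair ratios. In young against precursor, Six3 was at -0.057 with RLE scaling, -0.056 in DESeq2 and -0.25 to 0.39 with single libraries left out, and Sp8 at -0.66 to 0.49. Without HP or yCA only the striatal lineage compares these stages, and without SP or yMSN only the hippocampal one. The cause of the sign changes in the other settings was not tested. RLE scaling moved the median of all genes from 0.10 to -0.02 in young against precursor and from 0.20 to 0.08 in dMSN against SP, and upper quartile scaling from -0.11 to -0.27 in dMSN against yMSN. Fits of the group means without dMSN 1 or dMSN 2 have no residual degrees of freedom and give values only. With 31 to 67 counts per library, Six3 has the lowest depth of the 7.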
